A study of Mus musculus with 14 samples.

Results

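The clustered protocadherins are cell adhesion proteins encoded by 3 neighbouring gene clusters, alpha, beta and gamma, on mouse chromosome 18. Members were all gene identifiers in the count tables whose symbol starts with Pcdha, Pcdhb or Pcdhg, which gave 58 of 43629 identifiers, with 14 in the alpha, 22 in the beta and 22 in the gamma cluster. RNA-seq came from 8 primary hippocampal cultures of wild-type C57BL6 mice, taken at postnatal day 0 to 1 and grown for 14 days in vitro. The control group (CTRL, n = 4) received 0.1% DMSO, the solvent, for 15 h, and the picrotoxin group (PTX, n = 4) received 100 µM picrotoxin for 15 h. Picrotoxin blocks GABA-A receptors, which carry fast inhibition, so network activity rises. A single list of ChIP-seq peaks for L3mbtl1, a chromatin reader, was made from hippocampus of mice on a mixed C57BL6/129 background at postnatal day 7 to 8, with 3 wild-type and 3 L3mbtl1-/- samples behind it. Cultures hold mixed cell types, and the peaks come from tissue, so the assays do not describe the same cells.

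Each alpha and gamma gene has its own promoter and its own large first exon, which is joined to exons shared by the whole cluster. Beta genes are mostly single exons. A neuron uses few of the alternate promoters, chosen by chance with the help of the CTCF and cohesin proteins and of DNA methylation. The proteins bind copies of themselves on other membranes, and this lets a neuron recognise its own branches. The C-type genes Pcdhac1, Pcdhac2, Pcdhgc3, Pcdhgc4 and Pcdhgc5, at the ends of the alpha and gamma clusters, are used more widely than the alternates. Reads from the shared exons cannot be given to 1 gene, and the beta genes resemble each other closely, so the assignment of reads to single members is uncertain throughout.

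Gene counts per library ran from 14524916 to 19498189. CTRL and PTX separated on the first principal component (60.4% of the variance), and on the second (21%) both libraries numbered 1 stood apart. Members received 50079 counts in CTRL and 36130 in PTX. Of the 58 members, 57 passed the filter on low counts, and 55 had at least 10 counts in every library. The remaining one was Pcdha4, with 9 counts in CTRL and 4 in PTX. Another gene model, Gm37013, starts 41 bp before it and runs to the end of the gamma cluster (chromosome 18, 36952648 to 37841873), and it had 0 counts. The symbol Pcdha11 stands for 2 identifiers, which are kept apart here, and Pcdha10 is paired with none. Which of them (ENSMUSG00000007440 or ENSMUSG00000102206) counts the gene of that name is uncertain, and both are part of the alpha sums.

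After picrotoxin 29 of the 57 tested members fell and 2 rose, with 26 not past the threshold (edgeR adjusted p under 0.05 over 15959 tested genes). Over all tested genes 39.2% were called, 20.1% lower and 19.0% higher. Groups did not overlap for 28 members, 26 of them lower in PTX (38.0% of all tested genes did not overlap, in either direction). The median log2 fold change of PTX over CTRL was -0.43 for the members and -0.03 for all tested genes. The 3 clusters did not behave alike. In the beta cluster 21 of 22 members fell, in the alpha cluster 6 of 13 tested members fell and 1 rose, and in the gamma cluster 2 of 22 fell and 1 rose. These calls used group alone. Libraries were also taken as pairs by replicate number, a pairing that the sample titles do not state and that number 3 did not show. With that number as a block the gamma cluster had 7 lower and 1 higher, the alpha cluster 7 lower and 1 higher, and the beta cluster the same count of 21 lower. Over all tested genes the block gave 29.6% lower and 25.7% higher. Members lower in PTX in 4 of 4 pairs numbered 39 of 57, against 34.4% of all tested genes.

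Cell type markers moved with picrotoxin as well. In bulk RNA, fewer cells of a type and less RNA per cell cannot be told apart. Of 5 excitatory neuron markers 4 fell, with a summed level of 415 to 535 CPM (counts scaled to a fixed library size, per 1e6) in CTRL and 215 to 247 CPM in PTX. Of 5 inhibitory neuron markers Gad1, Gad2 and Sst rose and Dlx1 fell, with sums of 501 to 650 CPM and 906 to 1016 CPM. Of 6 astrocyte markers Gfap, Aqp4 and Aldoc fell, with sums of 5483 to 7438 CPM and 3716 to 5539 CPM. Of 5 general neuron markers, Snap25 and Map2 rose and Rbfox3 and Syt1 fell (sums 3709.7 to 4835 CPM and 4282 to 5672 CPM). Of the endothelial and mural markers Flt1 rose, and no marker of microglia, oligodendrocytes, their precursors, meningeal fibroblasts or choroid plexus was called. With the replicate block 2 microglia, 2 oligodendrocyte and 3 precursor markers were higher, and 3 meningeal fibroblast markers and 1 choroid plexus marker were lower. The block gave 1 excitatory marker higher and 4 lower, and 4 inhibitory markers higher and 1 lower. It gave 2 general neuron markers higher and 3 lower, 4 astrocyte markers lower, and 2 endothelial and mural markers higher and 1 lower. Choroid plexus markers summed to 426 to 647 CPM in the libraries numbered 1 and 4 of both groups and to 21.2 to 28.4 CPM in the others. No marker was at 0 in all libraries. The part of these shifts in the results below was not tested.

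**Figure D1:**
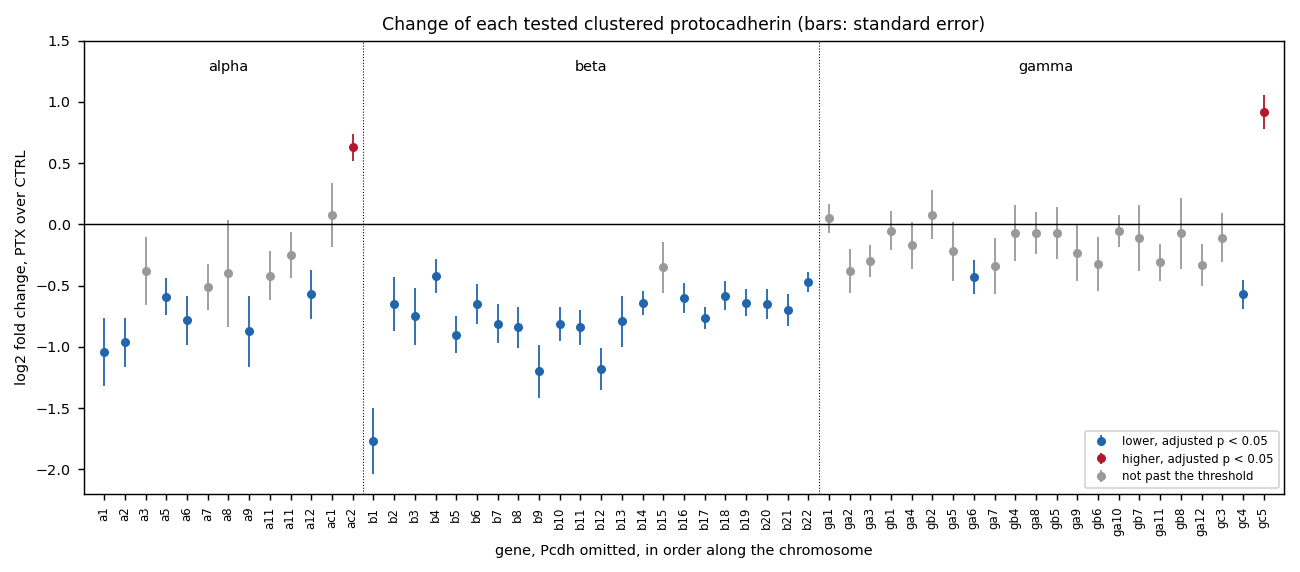
The log2 fold change of PTX over CTRL is plotted for each of the 57 tested members in chromosomal order, with standard errors as bars and colour for the edgeR call. All 22 beta genes lie below 0, the alpha alternates lie below 0, most gamma genes lie near 0, and Pcdhac2 and Pcdhgc5 lie above it.

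The beta genes showed the most uniform response. Beta protocadherins have no shared constant exons and lack the common cytoplasmic end of the other clusters. Summed over the cluster they reached 342, 318, 311 and 305 CPM in CTRL replicates 1 to 4 and 197, 197, 196 and 188 CPM in PTX replicates 1 to 4. The lowest CTRL library was far above the highest PTX library. The means were 319 ± 16.4 CPM and 194 ± 4.59 CPM (SD, n = 4), a ratio of 1.64, and the 4 pairs gave log2 ratios from -0.80 to -0.67. No test was run on the sum.

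Single beta genes all pointed the same way. All 22 had a log2 fold change below 0 and were lower in PTX in 4 of 4 pairs, with fitted values from -1.77 to -0.35 and a median of -0.72. Groups did not overlap for 19 of them, against 19.5% of all tested genes that were lower without overlap. The exception to the calls was Pcdhb15, with means of 2.67 ± 0.415 CPM for CTRL and 2.09 ± 0.306 CPM for PTX (SD, n = 4, edgeR adjusted p = 0.215). The calls of Pcdhb2, Pcdhb3 and Pcdhb4 were each lost on leaving out any of several single libraries. That of Pcdhb13 was lost without PTX replicate 3. Pcdhb2 and Pcdhb4 also lost theirs with no filter on low counts and without both libraries numbered 1. Pcdhb4 further lost its call with DESeq2 and with DESeq2's size factors in edgeR. For Pcdhb2, Pcdhb3, Pcdhb4 and Pcdhb13 the highest edgeR adjusted p was 0.197, 0.0903, 0.186 and 0.0681 over all alternatives. The other 17 beta calls held in every alternative fitted.

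Pcdhb1, the first gene of the cluster, fell most. Its level was 2.48, 3.14, 2.2 and 2.48 CPM in the CTRL libraries and 0.766, 1.06, 0.552 and 0.607 CPM in the PTX libraries. Every PTX library was well below every CTRL library. The fall was 3.41-fold (log2 fold change -1.77, SE 0.27, edgeR adjusted p = 0.000539), from 180 counts in CTRL to 48 in PTX. All 22 beta genes had at least 10 counts in every CTRL library, and 21 had that many in every PTX library. Pcdhb1 was the exception, so the size of its fall rests on few PTX counts. Pcdhb9 was at 28.1, 30.6, 24.3 and 20.9 CPM in CTRL and at 11.0, 16.3, 10.5 and 7.34 CPM in PTX. Its PTX libraries were more spread than those of Pcdhb8 or Pcdhb10 beside it, and the groups did not overlap (2.30-fold lower, edgeR adjusted p = 0.00185). Pcdhb12 stood at 11.4, 8.98, 9.84 and 8.04 CPM in CTRL and at 3.38, 4.60, 4.62 and 4.25 CPM in PTX (2.27-fold lower, edgeR adjusted p = 0.000361). Pcdhb5 had 7.90, 9.82, 10.6 and 8.04 CPM in CTRL and 4.72, 5.54, 4.62 and 4.55 CPM in PTX, a 1.87-fold fall (edgeR adjusted p = 0.00117).

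Pcdhb17 had the smallest p of the cluster, and its PTX libraries lay close together. It was at 26.7, 23.8, 24.8 and 27.9 CPM in CTRL and at 15.3, 15.5, 14.8 and 15.3 CPM in PTX (1.69-fold lower, SE 0.09 on the log2 scale, edgeR adjusted p = 0.000106). Pcdhb22, at the other end of the cluster from Pcdhb1, had 35.7, 35.7, 37.4 and 37.3 CPM in CTRL and 27.1, 23.2, 27.0 and 28.2 CPM in PTX. The fall was 1.39-fold, among the smaller ones of the cluster (edgeR adjusted p = 0.00152). Pcdhb19 was at 31.3, 24.3, 26.5 and 30.2 CPM in CTRL and at 18.4, 16.5, 18.3 and 19.1 CPM in PTX (1.56-fold lower, edgeR adjusted p = 0.000963). Along the cluster the log2 fold change and the start position had a Spearman correlation of 0.42 over the 22 genes (Pearson 0.41), and the change and the CTRL level one of 0.16. These describe genes measured in the same libraries and are not tests.

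Levels of beta genes can be set beside each other per length, here the CPM per kb of RefSeq gene span. In CTRL this level ran from 0.954 for Pcdhb15 to 11.9 for Pcdhb22. Pcdhb9 (8.50), Pcdhb14 (8.13) and Pcdhb17 (7.89) followed Pcdhb22, and their libraries overlapped one another. In PTX Pcdhb22 was again first with 8.60, Pcdhb14 had 5.23, Pcdhb17 had 4.65 and Pcdhb9 had 3.70. Pcdhb1 had the lowest level in PTX, 0.304, after 1.05 in CTRL.

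**Figure D2:**
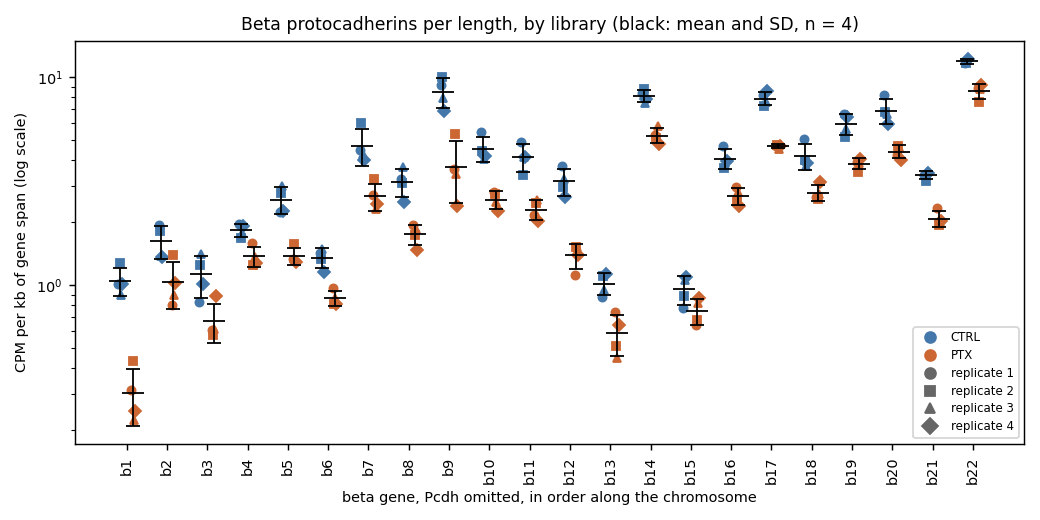
Levels of the 22 beta genes in CPM per kb of gene span (log axis), one point per library, with mean and SD in black. CTRL points lie above PTX points for most genes, Pcdhb22 has the highest level in both groups, and Pcdhb1 has the widest gap.

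Alternate alpha genes were also lower, though less evenly. The 12 alternate identifiers, with symbols from Pcdha1 to Pcdha12, encode receptors that differ in their extracellular part and share a cytoplasmic tail that binds kinases of the Pyk2 and FAK type. Their sum was 51.0, 46.6, 52.7 and 46.5 CPM in CTRL and 36.1, 27.2, 35.6 and 30.8 CPM in PTX, so the groups did not overlap. Of 11 tested alternates 6 fell, 0 rose and 5 did not pass, against 20.1% lower over all tested genes. The 11 log2 fold changes ran from -1.04 to -0.25 with a median of -0.57.

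Pcdha1 was at 1.95, 2.64, 1.35 and 2.22 CPM in CTRL and at 0.957, 1.24, 0.689 and 1.03 CPM in PTX, and fell 2.06-fold (SE 0.28 on the log2 scale, edgeR adjusted p = 0.0153, and 0.0587 without PTX replicate 3). Pcdha2 was at 3.54, 3.65, 3.94 and 2.87 CPM and then at 1.98, 2.06, 1.59 and 1.58 CPM, a 1.94-fold fall whose call held in every alternative (edgeR adjusted p = 0.00342). Pcdha9 had 9.14, 5.44, 7.89 and 6.60 CPM in CTRL and 5.87, 2.24, 4.69 and 3.09 CPM in PTX. Its groups overlapped because CTRL replicate 2 was below PTX replicate 1, yet each PTX library was below the CTRL library of its number. It fell 1.83-fold (edgeR adjusted p = 0.038, and 0.000193 with the replicate block), a call that did not hold with DESeq2's size factors or when any library but CTRL replicate 2 or PTX replicate 1 was left out (up to 0.14). Pcdha6 had 6.19, 6, 7.14 and 4.90 CPM in CTRL and 4.47, 2.71, 3.72 and 3.28 CPM in PTX (1.71-fold lower, edgeR adjusted p = 0.0109, and 0.0508 without PTX replicate 4).

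The other falls were Pcdha5 (1.51-fold, edgeR adjusted p = 0.0124) and Pcdha12 (1.48-fold, edgeR adjusted p = 0.0464). The Pcdha12 call was lost without any 1 library other than CTRL replicate 1, and without both libraries numbered 1. It was also lost with DESeq2's size factors in edgeR and with no filter on low counts. Pcdha7 had log2 fold change -0.51 and missed the threshold (edgeR adjusted p = 0.0573), and passed with the replicate block (0.0166) and without CTRL replicate 2. Pcdha3 (-0.38) passed without PTX replicate 1, where it stood at 5.74 CPM and its 3 fellow libraries at 2.48 to 3.24 CPM. Pcdha8 (-0.40) and both identifiers named Pcdha11 (-0.42 for ENSMUSG00000007440 and -0.25 for ENSMUSG00000102206) passed in no fit.

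The C-type genes split. Pcdhac2, whose protein is known for spacing the axons of serotonin neurons, rose against the trend of its own cluster. It had 37.6, 31.5, 34.3 and 30.9 CPM in CTRL and 60.8, 46.7, 54.0 and 46.8 CPM in PTX. All PTX libraries lay above all CTRL libraries. The rise was 1.55-fold (log2 fold change 0.63, SE 0.11, edgeR adjusted p = 0.00118). Pcdhac1, its neighbour, had 1.89, 1.74, 1.10 and 2.22 CPM in CTRL and 1.53, 1.71, 2.21 and 1.88 CPM in PTX and did not pass (log2 fold change 0.08, SE 0.26, edgeR adjusted p = 0.834).

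With Pcdhac2 and the alternates in opposite directions, the alpha total hardly differed. Its sum was 90.5, 79.9, 88.1 and 79.6 CPM in CTRL and 98.4, 75.6, 91.8 and 79.4 CPM in PTX, with overlapping groups and means of 84.5 ± 5.58 and 86.3 ± 10.6 CPM (SD, n = 4). The make-up of those counts did differ. Pcdhac2 held 41.5%, 39.5%, 38.9% and 38.8% of alpha counts in CTRL and 61.8%, 61.8%, 58.8% and 58.9% in PTX. The sum without Pcdhac2 averaged 51 ± 2.81 CPM for CTRL and 34.2 ± 4.28 CPM for PTX, with no overlap. These shares are of counts, not scaled for length.

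Pcdhgc5, whose protein binds the GABA-A receptor gamma2 subunit, had the largest rise of all members. It stood at 13.0, 17.9, 19.8 and 15.6 CPM in CTRL and at 29.2, 29.5, 35.9 and 30.9 CPM in PTX. The lowest PTX library exceeded the highest CTRL library. The rise was 1.89-fold (log2 fold change 0.92, SE 0.14, edgeR adjusted p = 0.000505), and its share of gamma counts was 5.36% ± 0.648 in CTRL and 11% ± 1.22 in PTX (SD, n = 4). Pcdhgc4, known for keeping interneurons alive during development, fell. It had 16.2, 18.9, 21.4 and 16.3 CPM in CTRL and 12.1, 12.0, 13.7 and 11.3 CPM in PTX, again without overlap (1.49-fold lower, SE 0.12 on the log2 scale, edgeR adjusted p = 0.00427). So the last 2 variable exons of the gamma cluster, which lie side by side, changed in opposite directions.

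Pcdhgc3, which acts on dendrite branching and binds the Wnt regulator Axin1, differed more between replicate numbers than between groups. It was at 64.3, 91.4, 115 and 107 CPM in CTRL and at 63.4, 87.2, 95 and 105 CPM in PTX. Libraries numbered 1 were lowest in both groups, and the test was not passed (log2 fold change -0.11, SE 0.20, edgeR adjusted p = 0.711). The same 2 libraries had the highest summed level of 6 meningeal fibroblast markers, 299 CPM in CTRL and 256 CPM in PTX, against 139 to 212 CPM and 102 to 132 CPM in the others. They had the lowest sums of microglia markers (9.02 and 14.1 CPM, others 36.1 to 92.7 CPM), oligodendrocyte precursor markers (166 and 179 CPM, others 283 to 432 CPM) and endothelial and mural markers (33.8 and 38.2 CPM, others 62.6 to 76.9 CPM). Oligodendrocyte markers were also lowest there within each group, at 38.2 and 51.9 CPM. The part of these cell types in the level of Pcdhgc3 was not tested. Without both libraries numbered 1 the calls of Pcdhac2, Pcdhgc4 and Pcdhgc5 held.

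**Figure D3:**
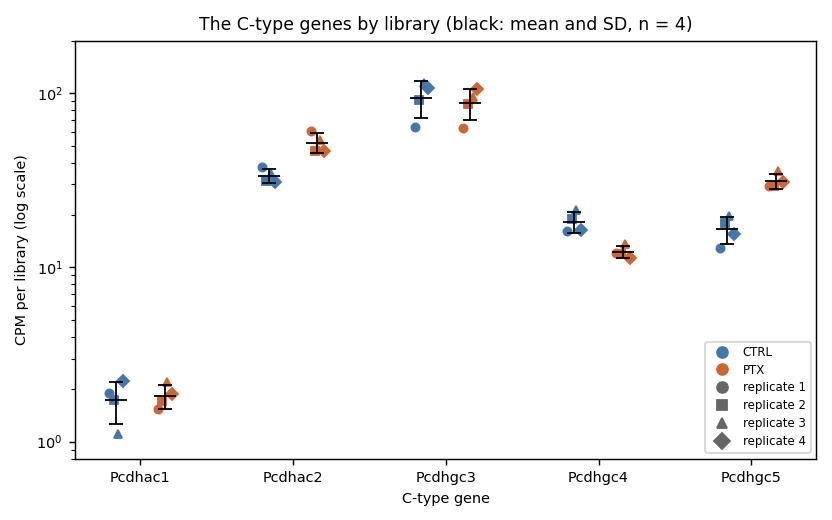
Levels of the 5 C-type genes in CPM on a log axis, one point per library, with mean and SD in black. PTX points lie above CTRL points for Pcdhac2 and Pcdhgc5, below them for Pcdhgc4, and overlap them for Pcdhac1 and Pcdhgc3.

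Gamma A and gamma B genes, the alternates of the third cluster, moved least. Gamma protocadherins are needed for dendrite self-avoidance and for survival of many neurons, and astrocytes make them too. Gamma A genes summed to 119, 124, 146 and 140.5 CPM in CTRL and 101, 99.3, 116 and 132 CPM in PTX, and gamma B genes to 43.2, 41.8, 48.0 and 59.7 CPM and to 39.7, 36.3, 46.5 and 55.9 CPM. Groups overlapped in both, although each PTX library was below the CTRL library of its number. Of 12 gamma A genes 1 fell and of 7 gamma B genes 0 were called, against 20.1% lower over all tested genes, with medians of -0.27 and -0.07 on the log2 scale. With the replicate block 5 gamma A genes and 1 gamma B gene were lower, against 29.6% lower over all tested genes.

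Pcdhga6 was the gamma A gene called without the block. It had 8.08, 8.81, 9.79 and 8.62 CPM in CTRL and 6.45, 5.96, 7.65 and 6.13 CPM in PTX (1.35-fold lower, edgeR adjusted p = 0.0306). The call was lost without any 1 library other than PTX replicate 3, with values up to 0.139. It was also lost with no filter on low counts and without both libraries numbered 1. Pcdhga3 was at 22.3, 25.4, 30.4 and 28.4 CPM in CTRL and at 19.0, 19.2, 23.0 and 25.4 CPM in PTX. It missed the threshold without the block (log2 fold change -0.30, edgeR adjusted p = 0.098) and passed with it (0.00669). Pcdhga2, Pcdhga7, Pcdhga11 and Pcdhgb6 likewise passed with the block alone, with log2 fold changes from -0.38 to -0.31 without it. Pcdhga1 (0.05) and Pcdhgb2 (0.08) were the 2 gamma alternates with a fitted value above 0, neither past the test. The whole gamma cluster averaged 309.7 ± 43.1 CPM for CTRL and 288 ± 40.6 CPM for PTX (SD, n = 4), a gap smaller than the spread between libraries, and the sum was lower in PTX in 4 of 4 pairs.

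**Figure D4:**
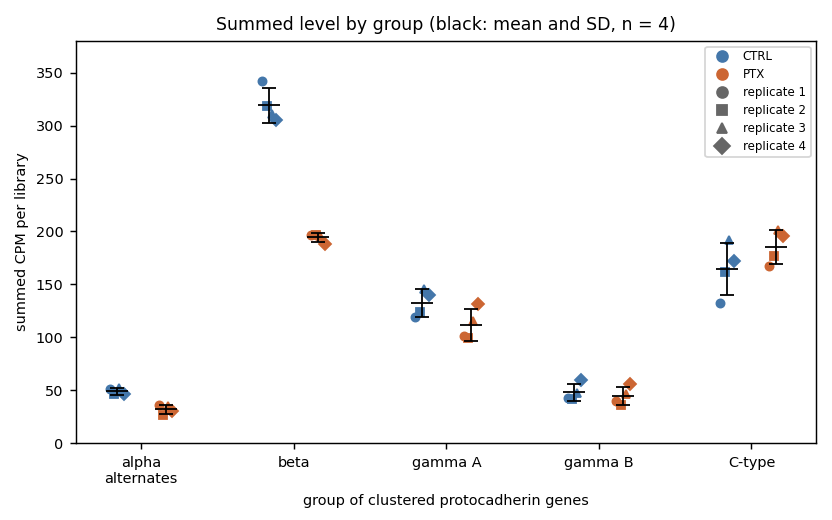
Summed CPM per library for the alpha alternates, the beta genes, the gamma A genes, the gamma B genes and the C-type genes, with mean and SD in black. The alpha alternates and the beta genes do not overlap between CTRL and PTX, whereas gamma A, gamma B and C-type sums do.

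One L3mbtl1 peak of 4677 in the authors' list lay in the clusters, which span 912 kb of chromosome 18 (mm10, 36930285 to 37841873). It covers 407 bp, 37805887 to 37806293, and ends 117 bp before the lower end of Pcdhgc3 (37806410 to 37841873), the end away from the shared exons. It lies inside the RefSeq spans of the gamma A and gamma B genes, whose first exons are further upstream. The authors' score of this peak was 13.1, rank 1243 of the list, whose median was 10.7. The alpha and beta clusters held 0 peaks. Among 56 protein-coding members Pcdhgc3 alone had a peak within 2000 bp of a gene end, against 17.8% of 21896 protein-coding genes. The next peaks outside lay at Vaultrc5 below the alpha cluster (36801414 to 36802537) and at Diaph1 above the gamma cluster (37935268 to 37935705). Pcdhgc3 was 1 of the 26 members, of 57 tested, that did not pass in PTX against CTRL. A relation between the peak and the change in RNA was not tested.

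Genes beside or between the clusters went both ways. Of 12 listed neighbours 10 were tested, and 4 rose and 1 fell. That is 50% called, not far from the 39.2% over all tested genes (19.0% higher and 20.1% lower). The median log2 fold change was 0.17, and 4 of the 10 lay below 0. Fchsd1, an actin regulator gene above the gamma cluster, went from 10.9 ± 0.295 to 27 ± 2.98 CPM (SD, n = 4, 2.48-fold higher, edgeR adjusted p = 1.07e-05). Hars, the histidyl-tRNA synthetase gene below the alpha cluster, rose 2.08-fold (edgeR adjusted p = 2.58e-05), Rell2 1.64-fold and the low-level gene Dnd1 2.08-fold (36 counts in CTRL, 68 in PTX). Zmat2 fell 1.21-fold (edgeR adjusted p = 0.0138), a call lost without CTRL replicate 1 or PTX replicate 1, 3 or 4. Taf7, between the beta and gamma clusters, averaged 47.5 ± 2.47 CPM for CTRL and 54.1 ± 1.28 CPM for PTX and did not pass (edgeR adjusted p = 0.0569, and 0.0265 with the replicate block).

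Non-clustered protocadherins, single genes outside the clusters that encode related adhesion proteins, moved in both directions. Of 13 listed, 11 were tested, 6 rose and 1 fell, against 19.0% higher and 20.1% lower over all tested genes, and the median log2 fold change was 1.02 (-0.03 over all tested genes). Pcdh8, also called arcadlin and known as an activity-induced gene, went from 63.9, 61.8, 68.2 and 53.6 CPM to 419.9, 325, 412 and 359 CPM (6.12-fold higher, edgeR adjusted p = 4.87e-07). Pcdh17 rose 3.59-fold (129 ± 12.3 to 464 ± 81.1 CPM, edgeR adjusted p = 5.62e-06), and Pcdh7 rose 2.27-fold (edgeR adjusted p = 1.5e-05). The 1 that fell was Pcdh19, an epilepsy gene, 2.25-fold lower (edgeR adjusted p = 0.000643), named after its value was seen.

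Genes that act on the choice of cluster promoters moved both ways. Of 24 listed, 3 rose and 5 fell (5 and 8 with the replicate block), near the 39.2% called over all tested genes, with a median of -0.06. Ctcf itself averaged 58.5 ± 1.52 CPM for CTRL and 57.9 ± 5.74 CPM for PTX (SD, n = 4, edgeR adjusted p = 0.917). The maintenance DNA methyltransferase gene Dnmt1 rose 1.82-fold (101 ± 4.3 to 184 ± 9.62 CPM, edgeR adjusted p = 1.52e-05), and Zfp143, encoding a promoter-binding zinc finger protein, and the demethylase gene Kdm1a rose 1.34-fold and 1.24-fold. Mau2, encoding a cohesin loader, fell 1.44-fold (edgeR adjusted p = 0.0006), followed by the cohesin regulator gene Pds5b (1.45-fold), the DNA methyltransferase gene Dnmt3a (1.50-fold), and the cohesin subunit genes Stag2 (1.36-fold) and Smc1a (1.14-fold). The Smc1a call (edgeR adjusted p = 0.0418) was lost on leaving out any 1 library, and the Dnmt3a call (0.00745) without PTX replicate 3 (0.0543). Smc1a also lost its call with DESeq2's size factors in edgeR, with no filter on low counts and without both libraries numbered 1.

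Among 23 genes for partners of protocadherin proteins 4 rose and 7 fell, or 47.8% called, not far from the 39.2% over all tested genes, with a median of 0.05. Ptk2, encoding the kinase FAK that alpha and gamma protocadherins bind and inhibit, rose 1.79-fold (128 ± 11.6 to 229 ± 19.3 CPM, SD, n = 4, edgeR adjusted p = 8.38e-05), while Ptk2b, encoding Pyk2, fell 1.54-fold (edgeR adjusted p = 0.00308). Prkca, encoding a protein kinase C, fell 1.57-fold (edgeR adjusted p = 0.000259) and its substrate gene Marcks 1.49-fold (edgeR adjusted p = 0.00029), both parts of the pathway from gamma protocadherins to dendrite branching. Ptk2b was named after its value was seen.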

How the data were processed

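The authors deposited a table of raw read counts per Ensembl gene for each library. The submitters' processing notes name Bowtie2 2.2.4, HTSeq 0.6.1, TopHat2 2.0.9, CASAVA 1.8 and build mm10, with the role of each tool, the annotation release and the strand setting not given in the sources used here. Summary lines, 5 in each, were left out; reads at non-unique positions were 15.2% to 20.5%, outside genes 19.9% to 26.8%, and ambiguous 0.58% to 0.675%. The authors' peak score, whose definition was not given, was deposited as 1 list for all 6 ChIP-seq samples, so wild type and knockout were not compared. Symbols came from a table matching 42462 identifiers; positions came from RefSeq, GRCm38.p6.

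The test of PTX against CTRL was the quasi-likelihood F test of edgeR 4.0.16 (filterByExpr, TMM, Benjamini-Hochberg adjusted p under 0.05 over all tested genes) in R 4.3.3. CPM used TMM-scaled library sizes. The code was tested on simulated data. Same-numbered libraries deviated together for numbers 1, 2 and 4 (correlations 0.77, 0.566 and 0.608). The numbers were therefore taken as pairs for the pair counts and the replicate block. The reported calls came from the fit with group alone, except where the block or another alternative is named. Number 3 did not stand out, with 0.153. CTRL replicate 3 had 0.207 with PTX replicate 2 and 0.209 with PTX replicate 4. DESeq2 1.42.0 and other settings were alternatives. Members and lists were chosen with earlier results of these data known. The naming rule took the C-type genes, the 4 largest called rises and falls, the 2 highest in CTRL and the smallest p of each cluster, and the 3 smallest p of each other list, with all called genes where 5 or fewer were called. Other genes were named outside this rule, among them Ctcf, Taf7, Pds5b, Dnmt3a, Stag2, Smc1a and Kdm1a. No sequences are shown.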

Additional observations from a re-analysis of the deposited data

Results flagged for a closer look

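Among 70 groups of 4 libraries examined, 1 held a library far from the others by Dixon's test, and chance alone flags about 1 in 20. This was the summed level of the beta cluster in PTX replicate 4, 188 CPM, where replicates 1 to 3 had 196 to 197 CPM. The value lies on the far side from CTRL, whose lowest library had 305 CPM, and without it the log2 ratio of the beta sum was -0.70 in place of -0.71.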

How the results depend on the processing

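The count of members called higher was 2 in every fit, and the count called lower ran from 22 to 26 on leaving out single libraries, was 25 with no filter on low counts, 26 with DESeq2's size factors in edgeR, 28 with DESeq2, 25 without both libraries numbered 1 and 35 with the replicate block, against 29 as reported. The replicate block changed the call of no member other than the 6 that the text names as passing with it. Summed clusters moved by less than the spread between libraries in all alternatives, although the log2 ratio of the alpha sum, 0.03, ran from -0.04 to 0.09, and 1 peak was found in each. Refits were counted for the 32 genes of the naming rule. These leave out Pcdhb2, Pcdhb3, Pcdhb4, Pcdha12 and Smc1a, whose calls changed in several fits. Of the 6 members that gained a call with the block they hold only Pcdhga3. Among the 448 refits of these 32 genes, 421 kept their direction and their side of the threshold. A further 23 lost the call, 1 gained it, and 3 changed sign, all of genes not called. These were Pcdhac1 (0.08 to -0.09 without CTRL replicate 3) and Pcdhgc3 (-0.11 to 0.00 without CTRL replicate 3 and to 0.07 without PTX replicate 1), whose log2 fold changes without single libraries ranged from -0.09 to 0.22 and from -0.21 to 0.07. Counts of promoter-choice genes called higher went from 3 to 5 with DESeq2, with its size factors in edgeR and with the replicate block, and ranged from 3 to 5 without single libraries. Those called lower went from 5 to 8 with the replicate block and ranged from 3 to 4. Non-clustered protocadherins called lower went from 1 to 2 with the block, and ranged from 1 to 2. Neighbours called lower went from 1 to 0 without both libraries numbered 1, and ranged from 0 to 1 without single libraries. The causes were not tested. At 13 counts, Pcdha4 cannot be compared at this depth.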
